A study of Mus musculus with 4 samples.

Results

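Sialic acids are acidic sugars that cap the ends of many glycoprotein and glycolipid chains on the cell surface. Cells build them from UDP-N-acetylglucosamine in the cytosol, activate them with CTP in the nucleus, carry the resulting CMP-sialic acid into the Golgi, and attach it there to growing sugar chains. Sialidases release the sugar again, in lysosomes or at the plasma membrane, and a cytosolic lyase can split the free sugar. The 10 genes described here encode steps of this route. Gne, Nans, Nanp and Cmas make CMP-sialic acid, Slc35a1 transports it, St3gal4 and St6gal1 attach the sugar, Neu1 and Neu3 remove it, and Npl splits it. They were grouped because Slc35a1 and Npl had shown higher values in knockout cells on these same arrays, and the question was whether that difference extended to the rest of the route. The difference of Slc35a1 and of Npl is therefore given as a description, with no test. All 10 genes were measured, of 18193 genes in all, by 16 probe sets, and each gene is represented by its brightest probe set.

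RNA came from hair follicle stem cells (HFSCs), which rebuild the hair follicle, and were obtained by cell sorting from the skin of C57BL/6 mice at postnatal day 4. The KO arrays carried RNA of miR-205 knockout cells (2 arrays) and the WT arrays RNA of wild-type cells (2 arrays), with replicate numbers 1 and 2 in the titles, which call them biological. The labels give neither the allele nor whether animals were pooled. Their treatment text describes other mice, K14-rtTA/TRE-miR-203/K14-H2BGFP and TRE-miR-203/K14-H2BGFP littermates given Dox, and was not used. P-values below measure only the spread between these arrays.

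miR-205 is a microRNA of stratified epithelia. Its mature strand is shown because it is what the knockout cells lack by label, and capitals mark its seed, bases 2 to 8 (RefSeq, GRCm38.p6, chr1:193507503-193507524, minus strand).

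mmu-miR-205-5p: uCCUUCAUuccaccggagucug

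The arrays do not measure the mature microRNA. The probe set of its host transcript Mir205hg read 6.52 and 6.13 on the KO arrays, against 5.81 and 5.30 on the WT arrays (log2 values), which does not check the genotype, because the deleted part is not given. Of the 10 genes listed as HFSC markers, 3 had a positive and 7 a negative difference. The 7 included Tcf3 and Tcf4 (-0.02 and -0.11), and whether these symbols name the follicle factors was not checked. The 3, Lhx2, Krt15 and Dio2, had both KO arrays above both WT arrays (8.2% of all genes), 0 had both below (5.7%), and none passed the test described below (limma adjusted p = 1 for each). Lhx2, a transcription factor of these cells, read 11.72 and 11.76 in KO and 11.66 and 11.67 in WT cells, and Sox9, another, 10.38 and 9.94 in KO and 10.22 and 10.14 in WT cells. Cd34, a marker of the adult follicle bulge, read 6.87 and 6.69 in KO and 8.32 and 6.20 in WT cells. Krt15, a keratin of the bulge, read 13.83 and 14.05 in KO and 13.62 and 13.78 in WT cells. The arrays also differed in sex-linked RNA. Xist, which coats the inactive X chromosome, read 5.26 and 5.45 in KO against 13.28 and 13.19 in WT cells, and the Y-linked Eif2s3y read 9.59 and 9.57 in KO against 3.05 and 2.86 in WT cells. They were the 2 genes past an adjusted p of 0.05 (limma, adjusted p = 0.0377 for each), 0.011% of those tested. In every comparison below, genotype and this difference in sex-linked RNA cannot be told apart. The 18S ribosomal RNA control at the 5′ end separated the numbers instead, at 11.51 on KO 1 and 11.59 on WT 1, and 9.46 on KO 2 and 9.40 on WT 2, so differences between arrays of the same number are also given.

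Transport and breakdown hold the values that drew attention to the route. Slc35a1 encodes the Golgi transporter of CMP-sialic acid. Its log2 values were 8.85 and 8.78 on the KO arrays, against 8.10 and 7.77 on the WT arrays, so that both KO arrays lay above both WT arrays. Mean and SD over 2 arrays were 8.81 ± 0.048 for KO and 7.93 ± 0.23 for WT, a KO minus WT difference of 0.88, or 1.84-fold. A dimmer probe set of the gene read 7.95 and 8.40 in KO and 7.36 and 7.62 in WT cells, again without overlap, a difference of 0.69. For the brighter probe set, KO 1 minus WT 1 was 0.75 and KO 2 minus WT 2 was 1.01. Only 10 of the 18193 genes had a larger positive difference.

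Npl encodes N-acetylneuraminate lyase, which cleaves free sialic acid into N-acetylmannosamine and pyruvate. Its single probe set read 7.40 on each KO array, against 6.77 and 6.46 on the WT arrays. The spread was thus in the WT arrays. Mean and SD over 2 arrays were 7.40 ± 0.0013 for KO and 6.61 ± 0.22 for WT, a difference of 0.79, or 1.73-fold. KO 1 minus WT 1 was 0.64 and KO 2 minus WT 2 was 0.95. There were 17 genes with a larger positive difference. Leaving out any 1 array kept the Slc35a1 difference between 0.72 and 1.04 and the Npl difference between 0.64 and 0.95. Both genes were chosen on these same arrays, so these ranges are a description and no test of the rise. The SD of 0.0013 rests on 2 values that happen to be close and does not measure the precision of the probe set.

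**Figure D1:**
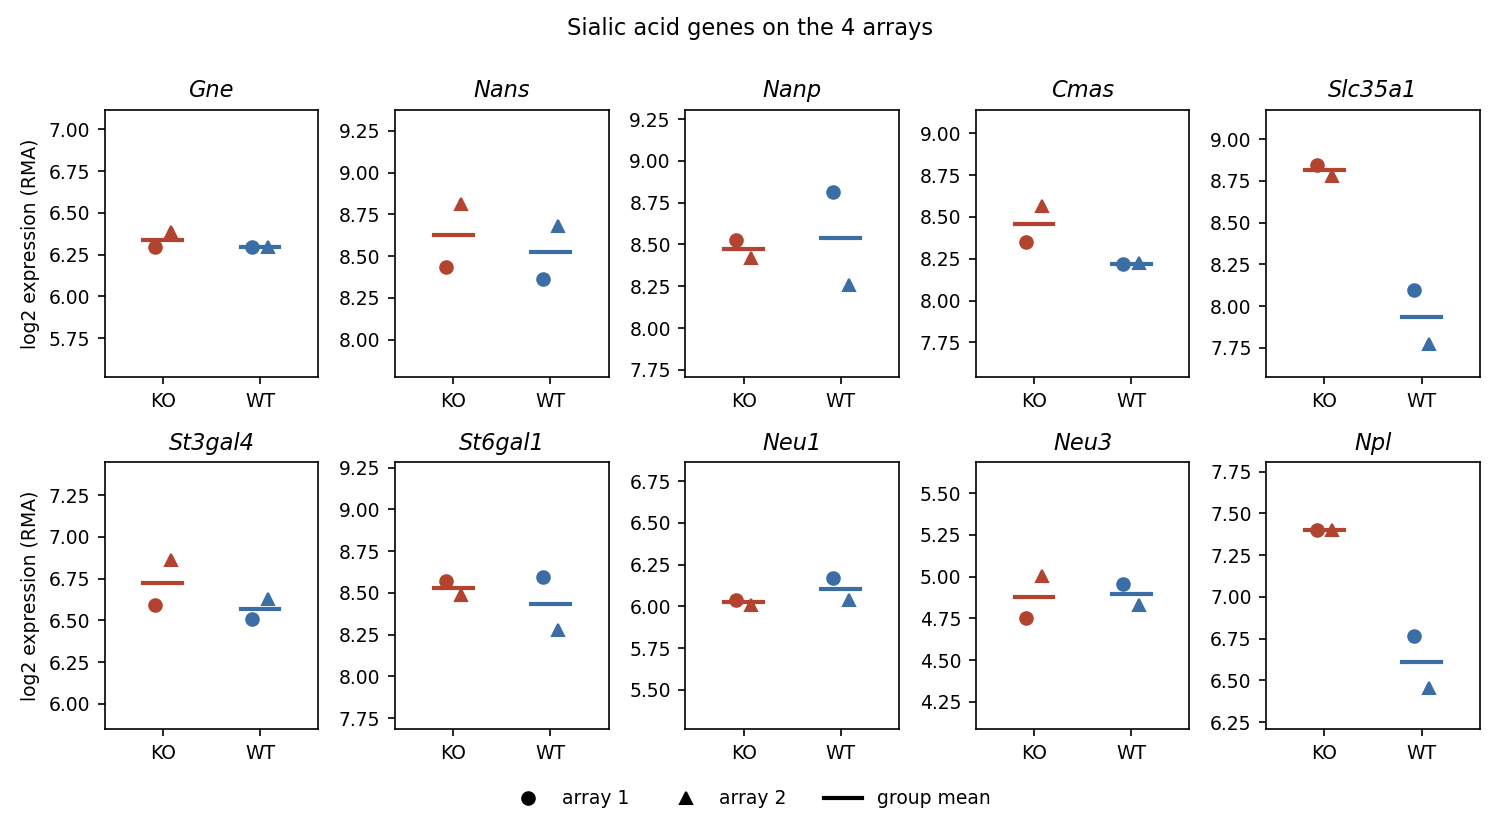
Log2 expression (vertical axes, each spanning the same range) of the 10 sialic acid genes on the KO arrays, left, and the WT arrays, right, with circles for array 1, triangles for array 2 and a bar for the group mean. The KO and WT points of Slc35a1, Npl and Cmas do not overlap, and those of the other 7 genes overlap or share a value.

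The enzymes that make CMP-sialic acid had smaller differences, and none of the 4 passed the test. Gne, the epimerase and kinase that starts the route, read 6.29 and 6.38 in KO and 6.29 on both WT arrays. KO 1 and both WT arrays held exactly the same value, and the difference was 0.04 (95% interval -0.12 to 0.21). Nans, the synthase that joins N-acetylmannosamine phosphate to phosphoenolpyruvate, read 8.44 and 8.81 in KO and 8.36 and 8.68 in WT cells. Here the arrays of number 2 were the higher ones in each group, and the difference was 0.10 (interval -0.53 to 0.74). Nanp, the phosphatase of the next step, read 8.52 and 8.42 in KO and 8.82 and 8.26 in WT cells, so that the KO values lay inside the WT range. Its difference was -0.07 (interval -0.79 to 0.66).

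Cmas, the synthetase that joins sialic acid to CMP and so makes what Slc35a1 carries, came nearest to the pair above. It read 8.35 and 8.57 in KO against 8.22 and 8.22 in WT cells, and both KO arrays lay above both WT arrays. Mean and SD over 2 arrays were 8.46 ± 0.15 for KO and 8.22 ± 0.0046 for WT. The difference of 0.24 (SE 0.094, interval -0.06 to 0.53) missed the threshold (limma adjusted p = 1). KO 1 minus WT 1 was 0.13 and KO 2 minus WT 2 was 0.34, and without single arrays the difference ran from 0.13 to 0.34.

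The sialyltransferases among the 10 genes, which attach the sugar to galactose in different linkages, did not separate the groups. St3gal4 read 6.59 and 6.86 in KO and 6.51 and 6.63 in WT cells, with KO 1 below WT 2, a difference of 0.16 (interval -0.23 to 0.54) that was 0.026 without KO 2 and 0.29 without KO 1. St6gal1 read 8.57 and 8.49 in KO and 8.59 and 8.28 in WT cells, with both KO values inside the WT range, a difference of 0.10 (interval -0.33 to 0.53). The second St6gal1 probe set gave 0.04.

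The sialidases lay close to 0. Neu1, the lysosomal sialidase, read 6.04 and 6.01 in KO and 6.17 and 6.04 in WT cells, and KO 1 and WT 2 held the same value. Its difference was -0.08 (interval -0.29 to 0.13), and its dimmer probe sets gave -0.01 and -0.03. Neu3, a membrane sialidase that acts on gangliosides, read 4.75 and 5.004 in KO and 4.96 and 4.83 in WT cells, a difference of -0.02 (interval -0.39 to 0.36). At values this low a difference can be understated, and detection calls were not used here. Gne, St3gal4, Neu1 and Neu3 all averaged under the median gene, at 6.88.

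None of the 8 genes besides Slc35a1 and Npl passed (limma adjusted p = 1 for each), and none had an unadjusted p under 0.05, against 1.88% of all genes. Their largest difference was that of Cmas, and their median was 0.07, against 0.0082 over all genes. That median became -0.0067 without KO 2 and -0.0079 without WT 2. The highest upper bound of their 95% intervals was 0.74, or 1.67-fold, for Nans. That a gene missed the threshold does not show that it was unchanged. With 2 arrays per group the threshold was hard to reach. Kdm5d, a Y-linked gene chosen after its values were seen, also missed it at 22.4-fold (limma adjusted p = 0.255).

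**Figure D2:**
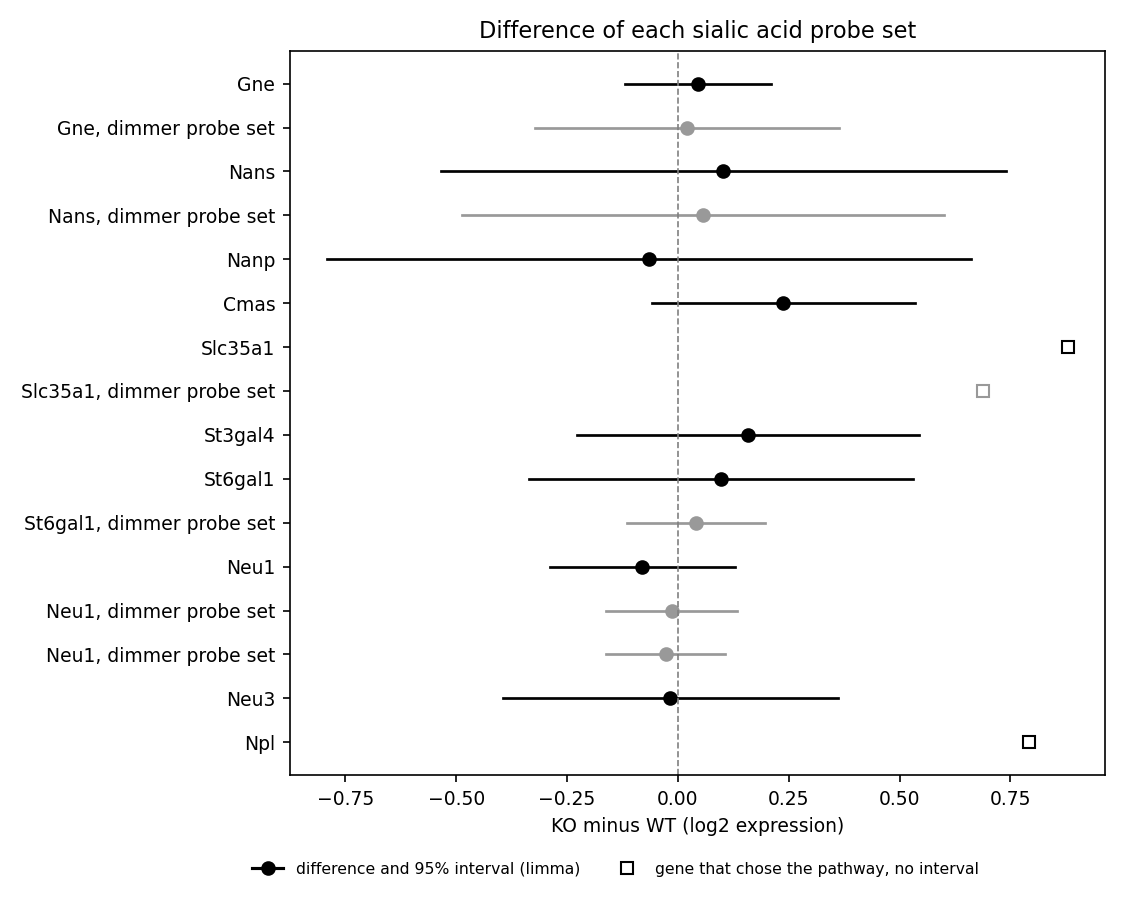
KO minus WT difference in log2 expression (horizontal axis) of the 16 probe sets of the 10 genes, in the order of the route, with black for the probe set that represents the gene and grey for dimmer ones. Circles carry 95% limma intervals, all of which span 0, and open squares mark the probe sets of Slc35a1 and Npl, at 0.69 to 0.88, which are shown without an interval.

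Of the 10 genes, 3 had both KO arrays above both WT arrays, against 8.2% of all genes, and 0 had both below, against 5.7%. Because Slc35a1 and Npl were chosen on this contrast, only Cmas, 1 of 8, bears on the rest of the route. Leaving out an array eases the condition that KO arrays lie above WT arrays, so the count over the 10 genes can rise but not fall. Without KO 1 it was 7 (28.4% of all genes), without KO 2 it was 3 (29.1%), and without WT 1 or WT 2 it was 5 (26.1% and 28.3%). Of the 8, 5 had a difference above 0, against 53.2% of all genes. Between arrays of the same number, 3 of the 8 other genes, Nans, Cmas and St3gal4, were higher in KO cells for both numbers, against 24% of all genes, and 1, Neu1, was lower in KO cells for both, against 16.8%.

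Related genes of sialic acid biology, 68 of 72 listed ones measured here, were examined in 6 lists. None of the 68 passed (limma, smallest adjusted p = 1), 3 had both KO arrays above both WT arrays, against 8.2% of all genes, and 1 had both below, against 5.7%. The supply of precursors, 11 genes of UDP-N-acetylglucosamine and N-acetylmannosamine metabolism, had a median difference of 0.0033. Pgm3, the phosphoacetylglucosamine mutase, read 7.66 and 7.61 in KO against 7.41 and 7.45 in WT cells, without overlap. Its difference of 0.21 (SE 0.047) was the only one of the 68 with an unadjusted limma p under the threshold of 0.05, against 1.88% of all genes, and its adjusted p was 1. Nagk, the kinase that recycles N-acetylglucosamine, chosen after its values were seen, read 8.15 and 7.80 in KO and 7.91 and 7.25 in WT cells, a difference of 0.40 that was 0.06 without WT 2. Its dimmer probe set gave -0.12.

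Attachment by other sialyltransferases, 18 genes, had a median of -0.0040 and a range of -0.14 to 0.17. St3gal2 read 7.35 and 7.52 in KO and 7.40 and 7.13 in WT cells, a difference of 0.17 (SE 0.14), and St8sia2, a polysialyltransferase, 7.21 and 7.15 in KO and 7.06 and 7.15 in WT cells, a difference of 0.07 (SE 0.056). In both genes a KO value equalled or lay below a WT value. Other probe sets gave 0.10 and -0.08 for St3gal2 and -0.09 for St8sia2. The galactosyltransferases that build the acceptor sugars, 9 genes, had a median of -0.06, which was 0.011 without KO 1 and 0.039 without WT 1. Among them C1galt1, the core O-glycan galactosyltransferase, read 8.93 and 8.57 in KO against 8.38 and 8.07 in WT cells. The groups did not overlap, and the difference of 0.53 (SE 0.20) missed the threshold (limma adjusted p = 1). KO 1 minus WT 1 was 0.56 and KO 2 minus WT 2 was 0.50, and the difference was 0.34 without KO 1 and 0.71 without KO 2. Its dimmer probe sets gave 0.15 and 0.11. B4galt5, a lactosylceramide synthase, read 4.79 and 4.38 in KO and 5.08 and 4.60 in WT cells, a difference of -0.26 (SE 0.26). Its other probe set, of similar brightness, gave 0.09.

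The other 13 Slc35 genes, most of which carry other nucleotide sugars, had a median of 0.03 and ran from -0.05 to 0.13, against 0.88 for Slc35a1. The pair of smallest p were Slc35b3, a carrier of the sulphate donor PAPS, with 8.78 and 8.73 in KO against 8.66 and 8.63 in WT cells (difference 0.11, SE 0.046), and Slc35d2, with 5.57 and 5.63 in KO and 5.45 and 5.57 in WT cells (0.09, SE 0.065). Lectins that bind sialic acid, 10 genes of mostly blood cells and vessels, were all under the median gene and had a median of 0.0023. Cd22, a B cell lectin, differed by -0.27 (SE 0.16) and Siglec1, a macrophage lectin, by -0.13 (SE 0.087). Dimmer probe sets gave -0.03 for Cd22 and -0.10 and -0.0076 for Siglec1.

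Sialidases, lysosomal partners and enzymes that modify the sugar, 7 genes, had a median of 0.03. Cmah, the hydroxylase that turns CMP-N-acetylneuraminic acid into its N-glycolyl form, read 8.22 and 8.10 in KO and 8.11 and 6.72 in WT cells. WT 2 stood apart, while WT 1 lay inside the KO range. The difference of 0.75 (SE 0.56, limma adjusted p = 1) was 0.05 without WT 2. KO 1 minus WT 1 was 0.12 and KO 2 minus WT 2 was 1.38. A second probe set of Cmah read 7.24 and 7.38 in KO and 7.15 and 5.97 in WT cells, with WT 2 again the low array. Dimmer probe sets of Cmah gave 0.42, 0.17, -0.0039 and -0.13. In the sets at 0.42 and 0.17 WT 2 was again lowest, and at 0.42 both KO arrays lay above both WT arrays. In the sets at -0.0039 and -0.13 KO 2 was the lowest array. Siae, an esterase that removes O-acetyl groups from sialic acid, read 6.11 on 3 arrays and 5.86 on WT 2, a difference of 0.12 (SE 0.11). Its dimmer probe sets gave 0.33, 0.14 and -0.03.

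**Figure D3:**
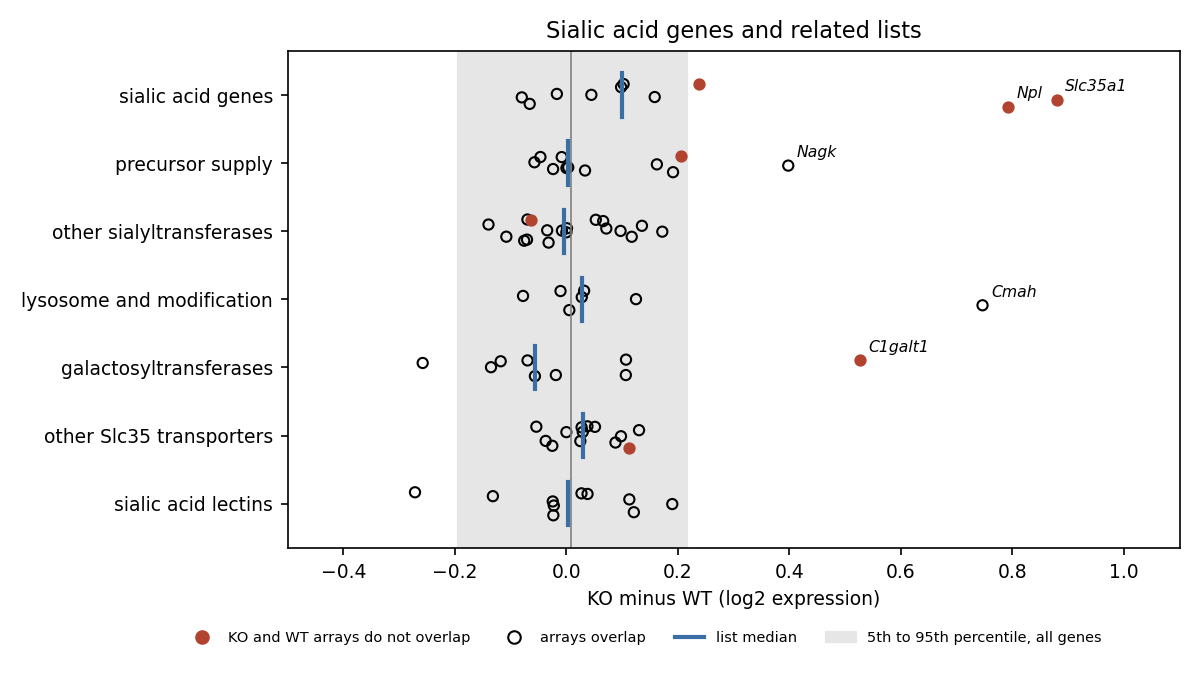
KO minus WT difference in log2 expression (horizontal axis) of each sialic acid gene and of each measured gene of the 6 related lists. Filled points mark genes whose KO and WT arrays do not overlap, blue bars list medians, and the grey band the range from -0.19 to 0.22 that holds the 5th to 95th percentile of all genes. Slc35a1 and Npl lie far right of the band and the list medians between -0.06 and 0.10.

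Markers of other cells were set beside the difference of Slc35a1 and Npl, since in bulk RNA fewer cells of a type and less RNA per cell cannot be told apart. Some suprabasal epidermis markers, but not all, were also higher on both KO arrays. Krt1, the keratin of cells above the basal layer, read 11.37 and 11.31 in KO against 10.32 and 9.86 in WT cells, and Krt10, its partner, 12.22 and 12.21 in KO against 11.75 and 11.06 in WT cells. Of the 8 suprabasal markers, 7 had a positive difference, against 53.2% of all genes, and 4 had both KO arrays above both WT arrays, against 8.2%. Their summed signal (2 to the power of each log2 value) was 13711 and 14119 in KO against 9884 and 8662 in WT cells. The 1 suprabasal marker without a positive difference was Ivl, at -0.11. The part of these cells in the difference of Slc35a1 and Npl was not tested.

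Dermal fibroblast markers followed another order. Their summed signal over 10 genes was 29016 and 15115 in KO and 48100 and 12014 in WT cells, highest on WT 1 and lowest on WT 2. Of the 10, 0 had both KO arrays above both WT arrays, against 8.2% of all genes, and 0 had both below, against 5.7%. All 10 had a negative difference, with a median of -0.34, whereas 53.2% of all genes had a difference above 0. Col1a2, a fibrillar collagen chain, read 13.10 and 11.86 in KO and 13.89 and 11.34 in WT cells, and Pdgfrb 5.80 and 4.60 in KO and 7.54 and 4.87 in WT cells. Of the basal keratins, Krt5 read 13.76 and 13.68 in KO and 13.58 and 13.47 in WT cells. Krt14 read 13.65 and 13.73 in KO and 13.54 and 13.57 in WT cells. Of the 6 basal markers, only these 2 had KO values that all exceeded the WT values, against 8.2% of all genes. In the other 4 the groups overlapped or shared a value. A positive difference was found in 5 of the 6, against 53.2% of all genes. The 6 basal markers summed to 39994 and 38193 in KO and 36565 and 34313 in WT cells. The summed signals of the 6 immune markers, all under the median gene, lay between 237 and 239 in KO and between 219 and 240 in WT cells. Those of the 6 endothelial markers were 378 and 383 in KO and 470 and 437 in WT cells. Among them 3, Kdr, Egfl7 and Pecam1, had both KO arrays below both WT arrays, against 5.7% of all genes. Of the 6, 0 had a positive and 5 a negative difference, and 5 averaged under the median gene. Dimmer probe sets of Egfl7 gave -0.12, 0.05 and -0.14. The 6 melanocyte markers summed to 926 and 689 in KO and 1057 and 778 in WT cells. Of these 1 had both KO arrays below both WT arrays, Mitf, a transcription factor of melanocytes, with 7.62 and 7.60 in KO and 8.02 and 8.13 in WT cells (difference -0.47, SE 0.058, limma adjusted p = 1). The part of these cells in the difference of Slc35a1 and Npl was not tested either.

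**Figure D4:**
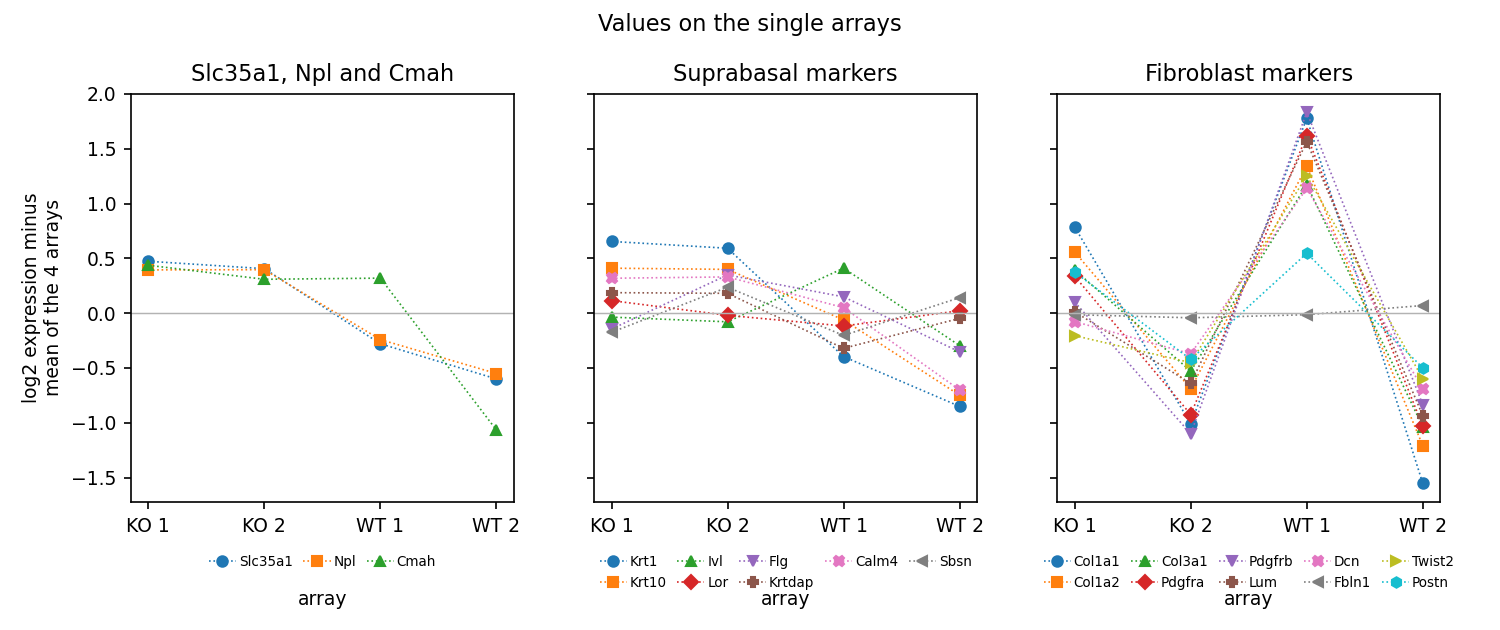
Log2 expression minus the mean of the 4 arrays (vertical axis) on each array (horizontal axis) for Slc35a1, Npl and Cmah, for the 8 suprabasal markers and for the 10 fibroblast markers. Slc35a1, Npl, Krt1 and Krt10 are above 0 on both KO arrays and below 0 on both WT arrays. Not all of the suprabasal markers are, and Ivl is highest on WT 1. Cmah is low on WT 2 alone, and 9 of the 10 fibroblast markers peak on WT 1.

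The promoters of Slc35a1 and Npl are shown because these are the genes that were higher together in KO cells. They run from 250 bases before to 50 after the annotated start, 5′ to 3′ on the gene's strand (RefSeq, GRCm38.p6; entries matched 8 of the 10 genes). Capitals mark matches on either strand to the GC box (GGGCGG), the CCAAT box (its letters), the TATA box (TATAAA) and the E-box (CACGTG). None of these motifs overlapped another in the windows shown. Slc35a1 lies at chr4:34687389-34687688 and Npl at chr1:153549665-153549964, both on the minus strand.

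Slc35a1: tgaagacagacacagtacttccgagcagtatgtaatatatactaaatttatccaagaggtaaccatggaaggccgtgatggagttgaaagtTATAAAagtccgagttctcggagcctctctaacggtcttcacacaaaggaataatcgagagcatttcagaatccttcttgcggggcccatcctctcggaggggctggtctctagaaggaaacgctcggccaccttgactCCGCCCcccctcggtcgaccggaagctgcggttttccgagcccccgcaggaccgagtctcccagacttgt

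Npl: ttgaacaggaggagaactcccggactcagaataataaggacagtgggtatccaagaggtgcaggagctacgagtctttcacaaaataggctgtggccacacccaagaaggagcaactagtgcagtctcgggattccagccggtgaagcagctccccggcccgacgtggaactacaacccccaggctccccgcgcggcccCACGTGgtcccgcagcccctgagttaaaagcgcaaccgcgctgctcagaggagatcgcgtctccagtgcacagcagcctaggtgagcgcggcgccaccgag

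Slc35a1 held a GC box 20 bases before the start, on the opposite strand, and a TATA box 159 bases before it. Npl held an E-box 51 bases before its start, and the windows shared none of these motifs. Over all 32851 promoters of this length, the GC box was found in 35.7%, the CCAAT box in 37.4%, the TATA box in 13.6% and the E-box in 7.15%. A match is a description of letters only.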

How the data were processed

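Messenger RNA of 4 samples was measured on Affymetrix mouse arrays. Per the submitters' processing notes, the authors ran RMA, and the deposited values are its log2 expression per probe set. The version of RMA, its genome build and its probe set definition were not given in the sources used here. In 47.1% of the 45101 probe sets at least 2 arrays held equal values, and detection calls were not used here. The number of arrays limits the precision.

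Symbols were taken from GEO's annotation of the platform, and 34945 probe sets with exactly 1 symbol were used. Of these, 34741 had a gene identifier in the GRCm38.p6 RefSeq table. Each of 18193 genes took its probe set of highest mean. The KO and WT arrays were compared by limma's moderated test (limma 3.58.1, R 4.3.3), two-sided and without covariates. P-values were adjusted by Benjamini-Hochberg over all genes, and intervals are at 95%. A difference is KO minus WT, and no filter on dim genes was applied. The fit was tested on simulated data.

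The 10 genes and all lists were chosen with earlier results of these data known. The genes named are the 10, of each related list those with an unadjusted p under 0.05 or otherwise the 2 of smallest p, and fixed check genes. Lists are described by counts and medians, with no set test. Alternatives were quantile normalization again, median centring, leaving out dim genes, averaging the probe sets of a gene, testing all probe sets singly, a replicate block, eBayes with trend and leaving out each array. Some listed genes are not reported here.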

Additional observations from a re-analysis of the deposited data

How the results depend on the processing

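The 2 genes past the threshold became 3 with quantile normalization again, 4 with median centring, 1 without dim genes and 2 with the eBayes trend. They became 0 with the mean of probe sets, with every probe set, without any single array and with the replicate number as a block (limma; 375, 711, 1044 to 2044 and 879 then had an unadjusted p under 0.05). The cause was not tested. Deviations from the group means correlated between same-numbered arrays (r = 0.56 over genes), but with 2 pairs the labels show only a shared number, and the replicate block changed no call of the 8 genes tested.

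The median of the 10 genes was 0.10, with Slc35a1 and Npl, chosen on this contrast, included. It was 0.17 without dim genes, which removed 4 of the 8 others and kept the chosen pair. Npl stayed in only through its KO arrays, since its WT mean of 6.61 lay under the median gene, at 6.88. Without single arrays the median of the 10 ran from 0.013 to 0.20. The median of the 8 others was 0.07, or 0.10 without dim genes, and ran from -0.0079 to 0.0997 without single arrays. The count of the 10 genes without overlap and higher in KO cells, Slc35a1 and Npl included, ran from 3 to 7. It was above 3 only where an array was left out. That eases the condition, which 26.1% to 29.1% of all genes then met, against 8.2% with all arrays. Without single arrays 4 genes changed sign: Nans ran from -0.0859 to 0.291, Nanp from -0.34 to 0.212, St6gal1 from -0.0606 to 0.257 and Neu3 from -0.144 to 0.11. Gne ran from 0 to 0.0897, St3gal4 from 0.026 to 0.291 and Neu1 from -0.146 to -0.0137.

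The precursor median was -0.0226 with quantile normalization again, -0.017 with median centring, 0.0334 without dim genes, -0.0064 with the mean of probe sets and 0.0033 to 0.14 without single arrays. That of the other sialyltransferases was 0.0363 without dim genes and -0.0185 to 0.0411 without single arrays, and that of the other Slc35 genes 0.0188 to 0.0566. The galactosyltransferase median was 0.0251 without dim genes and ran from -0.0697 to 0.0391 without single arrays. The lectin median was -0.0181 with median centring and ran from -0.0323 to 0.0302. All lectins are dim, so that list gave no value without dim genes.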

Other observations

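Slc35a1 and Npl were also set beside their neighbours on chromosomes 4 and 1, the 3 nearest measured genes on each side, chosen after the data were seen. None of these 12 genes passed (limma adjusted p = 1 for each), and their differences ran from -0.19 for Rgs16, a regulator of G protein signalling, to 0.12 for E330020D12Rik. Rars2, the mitochondrial arginyl-tRNA synthetase gene next to Slc35a1, read 9.33 and 9.38 in KO and 9.29 and 9.27 in WT cells, a difference of 0.07 (SE 0.043). Orc3, a subunit of the origin recognition complex, differed by 0.01 (SE 0.040). Dhx9, the RNA helicase gene next to Npl, read 11.61 and 11.74 in KO and 11.57 and 11.79 in WT cells, a difference of -0.0017 (SE 0.11), and Shcbp1l, another neighbour of Npl, differed by 0.0072 (SE 0.062).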
